A study of Oryza sativa with 4 samples.

Results

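Genes of the cell cycle, of DNA replication and of histones were examined in the leaves of rice seedlings. They were chosen by name from the rice genes that have an array probe set of their own. A gene was taken where its symbol or a synonym starts with CYCA, CYCB or CYCD (cyclins), CDKA or CDKB (cyclin-dependent kinases), MCM, ORC or PCNA (replication proteins), or H1, H2A, H2B, H3 or H4 as the name of a histone. The name rule itself uses no measured value, but it was set with earlier results of these data known. It gave 38 genes of the 17905 paired with probe sets, and all histone genes among them were genes of H2B. The same name rule finds 48 genes in the rice gene table. The other 10 were not paired with a probe set and were not analysed here (CDKB;1, CYCA3-1, CYCB1-5, CYCD2-1, H2B.2, H2B.3, H2B.4, H2B.9, H2B1 and ORC6).

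The 4 arrays, 1 per condition, held leaves of the japonica rice cultivar ZH11 and of an *OsABA8ox3* RNAi line in that background, at 0 h and after 2 h of 20% PEG, taken at the four-leaf stage. PEG is a polymer that withdraws water from the roots and mimics drought. *OsABA8ox3* encodes an ABA 8′-hydroxylase, the enzyme that breaks down the drought hormone abscisic acid (ABA). The methods name the line as RNAi-9, a single line with 1 insertion, and describe WT as ZH11 or as ZH11 carrying the empty vector pYL. No probe set was paired with *OsABA8ox3*, so the genotype labels were not checked on the silenced gene. The number of plants behind an array is not given in the sources used here. No array at 2 h without PEG was analysed, and so PEG and time cannot be told apart. Without replicate arrays no difference has a p-value or a standard deviation, and every difference below compares 2 arrays.

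A dividing plant cell passes from growth (G1) through DNA synthesis (S) and a second gap (G2) to mitosis. Cyclin-dependent kinases drive these steps when bound to cyclins. D-type cyclins respond to sugar and hormones and open the way from G1 into S, A-type cyclins act from S phase onwards, and B-type cyclins act at entry into mitosis. Replication starts where the origin recognition complex (ORC) loads the MCM helicase, PCNA then holds the DNA polymerase on its template, and new histones package the copied DNA. In leaves of grasses most division takes place near the base of the growing blade, and expanded blades hold few dividing cells.

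The signals are log2 values on each array. Signals under 6 were raised to 6, and signals were averaged over the probe sets of a gene. A gene was called higher or lower where a difference exceeded 2-fold (1 in log2). Across the arrays the median of all rice probe sets was 5.32 to 5.45, and 42.4% to 43.4% of them reached 6. The leaf label was checked on 6 genes of photosynthesis, of which 1 was at 6 on all arrays, while the brightest reached 15.1 to 15.5 on each array. A list for the shoot meristem and young primordia held 13 genes with names starting OSH or WOX. It was made by name alone, and whether each gene marks these tissues was not checked. Of the 13, 10 lay at 6 on all 4 arrays, OSH1 among them, and OSH45, the brightest of the others, reached 12.3 to 12.4. The remaining WOX8 was higher after PEG in both genotypes, by 1.59 (WT) and 1.23 (RNAi-9). WOX11 was higher in RNAi-9 (1.87) and within 2-fold in WT (0.55).

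Many cell cycle genes gave low signals in these leaves. Of the 38 genes, 14 (36.8%) were at 6 on all 4 arrays, against 2771 (15.5%) of all 17905 genes, and 17 (44.7%) were above 6 on all 4 arrays, against 72.5%. The other 7 were above 6 on some arrays. The low genes were mostly those of replication, with 10 of 14 at 6 throughout, namely ORC1, ORC3, ORC4, ORC5, MCM3, MCM4, MCM5, OsMCM6, MCM7 and MCM8. The D-type cyclins CYCD2-2 and CYCD4-1 and the B-type cyclins CYCB1-3 and CYCB2-2 were also at 6 throughout. All 5 H2B genes were above 6 on every array. The deposited signals of the 14 low genes ran from 0 to 5.96 over 17 probe sets, and a signal in this range gives no order between arrays here. MCM3 to MCM7, which with MCM2 form the ring of the helicase, had deposited signals of 4.32 to 5.73 in WT at 0 h, 1.05 to 5.25 in WT after PEG, 1.85 to 4.70 in RNAi-9 at 0 h and 1.63 to 5.21 in RNAi-9 after PEG. These ranges overlap, so for most of the helicase the arrays show only that the signal stayed under 6.

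**Figure D1:**
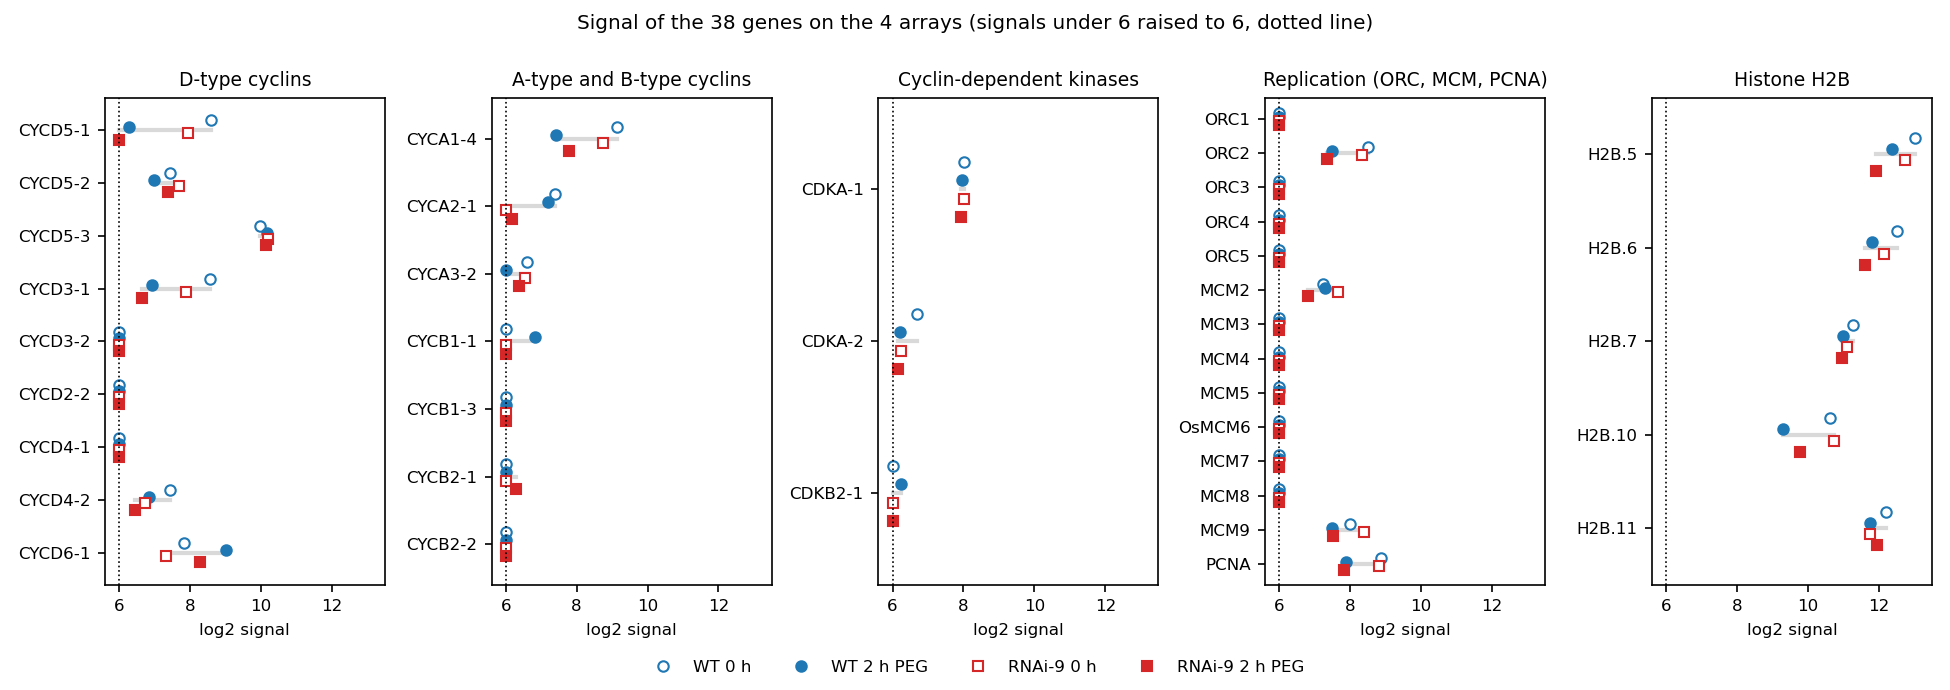
Log2 signal (x axis) of each of the 38 genes on the 4 arrays, grouped by role, with signals under 6 raised to 6 (dotted line). Circles are WT and squares RNAi-9, open at 0 h and filled after 2 h of PEG, and the grey bar spans a gene's 4 values. The H2B genes lie between 9.29 and 13.02 and 10 of 14 replication genes lie at 6.

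The first comparison asks how these genes differed between 0 h and 2 h of PEG within each genotype. In WT, 18 of the 38 genes (47.4%) were below their 0 h signal, 5 (13.2%) above it and 15 at 0, where of all 17905 genes 8944 (50.0%) were below and 5735 above. In RNAi-9, 17 (44.7%) were below, 4 (10.5%) above and 17 at 0, where of all genes 50.3% were below and 32.5% above. The share of genes below 0 was thus close to that of all genes, and more of the 38 lay at 0. Beyond 2-fold, 5 genes (13.2%) were lower in WT (CYCD5-1, CYCA1-4, CYCD3-1, H2B.10 and ORC2), where 9.47% of all genes were, and 1 gene (CYCD6-1, 2.63%) was higher, where 10.0% of all genes were. In RNAi-9, 2 genes (5.26%) were lower (CYCD5-1 and CYCD3-1), where 9.29% of all genes were, and 0 were higher, where 9.34% of all genes were. The shares of lower genes thus lay near those of all genes, above in WT and below in RNAi-9. They count in the 14 genes at 6 on all arrays, which cannot be called. The median difference of the 38 genes was 0 in both genotypes, and that of all genes was 0 in WT and −0.01 in RNAi-9. Both genotypes had lower signals for 15 of the 38 genes (39.5%, against 42.9% of all genes) and higher signals for 1 (2.63%, against 24.9%). Another 4 (10.5%, against 12.4%) went opposite ways (CYCD5-3, CYCA2-1, MCM2 and H2B.11), where another scaling turned the sign of a change for all but CYCA2-1. For CYCA2-1 the change in RNAi-9 was 0 with the scaling to hybridization controls described below.

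Values close to the 2-fold limit decide these counts. In WT, ORC2 (−1.02) lay just inside and PCNA (−0.98) just outside it, and on the higher side CYCD6-1 (1.19) lay inside and CYCB1-1 (0.82) outside. For RNAi-9, CYCD3-1 (−1.22) lay inside and PCNA (−0.99) outside, and CYCD6-1 (0.96) was the nearest on the higher side. Scaling the arrays to their 9 hybridization controls, bacterial and phage transcripts added in known amounts, moved the RNAi-9 changes of all signals by −0.27. Under that scaling 9 of the 38 genes (23.7%) were lower in RNAi-9, adding CYCA1-4, ORC2, PCNA, MCM2, MCM9, H2B.5 and H2B.10, while of all genes 2905 (16.2%) were lower and 1248 higher, in place of 1664 and 1673. Scaling to the median of probe sets of at least 8 instead gave 1918 higher and 1179 lower genes in RNAi-9, with 1 higher and 2 lower among the 38. With the signals as deposited, without raising low ones to 6, 10 genes (26.3%) were lower in each genotype. Of all genes 15.6% were lower in WT and 15.7% in RNAi-9. The genes added in WT (CYCD2-2, CYCB2-2, MCM4, MCM5 and MCM8) were all under 6 on every array. So were CYCD2-2, ORC1, MCM3, MCM4, OsMCM6 and MCM8 in RNAi-9, where CDKA-2 and MCM9 were also added. Signals under 6 give no order between arrays here, so the calls on such genes cannot be read as lower signals. Higher beyond 2-fold were 4 genes (10.5%) in WT and 5 (13.2%) in RNAi-9, where 3130 and 2860 of all genes were.

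Measures of RNA quality moved with PEG on the same arrays. The 3′ minus 5′ signal of the cyclophilin control was 0.63 and 0.67 at 0 h and 0.19 and 0.33 after PEG in WT and RNAi-9. That of the actin control was 4.74 and 4.51 at 0 h and 4.33 and 4.28 after PEG. For actin the 3′ signal was thus far above the 5′ signal on every array. The part of RNA quality in the changes was not tested. In whole leaves, fewer cells of a dividing type and less RNA per cell cannot be told apart.

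**Figure D2:**
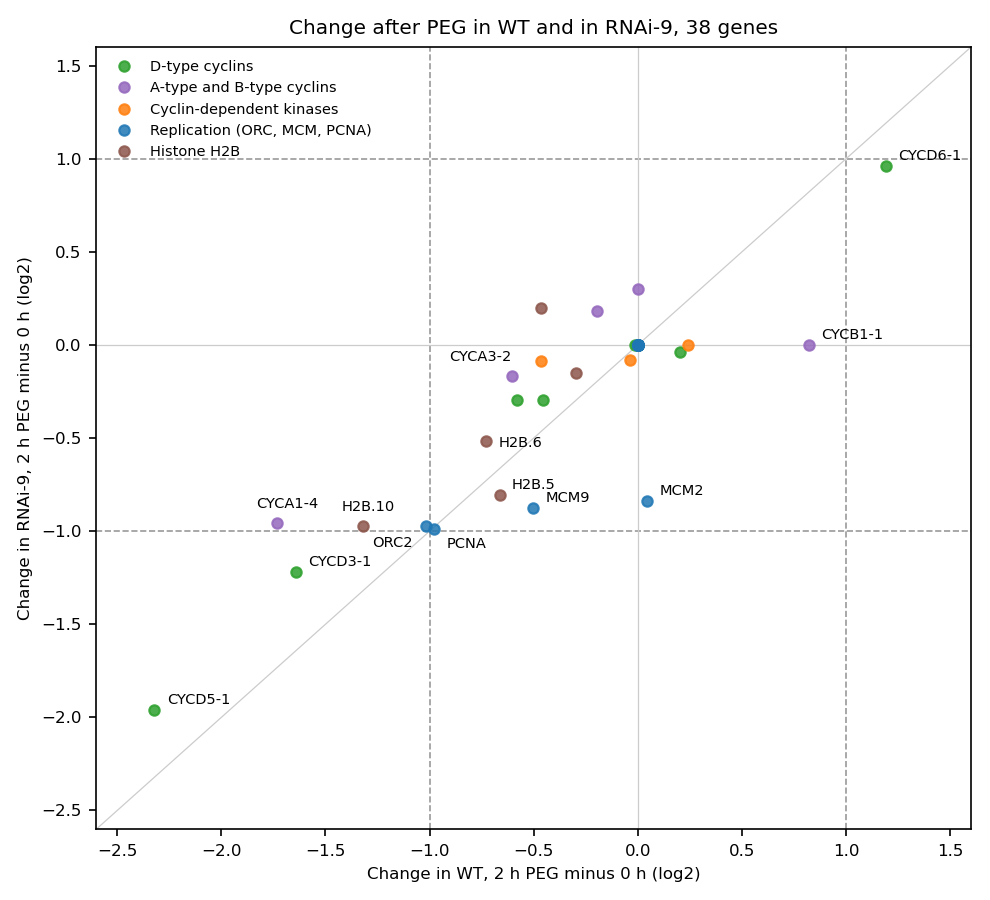
Difference in log2 signal between 2 h of PEG and 0 h in WT (x axis) and in RNAi-9 (y axis), 1 point per gene, coloured by role. Dashed lines mark 2-fold and the diagonal marks equal changes. CYCD5-1 (−2.32 and −1.96) and CYCD3-1 (−1.64 and −1.22) lie beyond 2-fold in both genotypes, CYCD6-1 is the point at the upper right, and the 14 genes at 6 on all arrays lie at 0.

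Among the 9 D-type cyclins, 2 were lower in both genotypes and CYCD6-1 was higher in WT. CYCD5-1 (gene LOC4333455) had signals of 8.59 in WT at 0 h, 6.27 in WT after PEG, 7.96 in RNAi-9 at 0 h and 6 (deposited 5.75) in RNAi-9 after PEG. Both PEG arrays were below both 0 h arrays, and after PEG the signal was near 6. The difference was −2.32 in WT and −1.96 in RNAi-9, or −2.21 in RNAi-9 with the deposited signals. Its single probe set is of a type that can bind several transcripts, so the gene drops out where such probe sets are left out.

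CYCD3-1 (LOC4340499) belongs to the D3 class, which in Arabidopsis responds to cytokinin and prolongs division in young leaves. Its signals were 8.57 and 6.92 in WT at 0 h and after PEG, and 7.88 and 6.66 in RNAi-9. As for CYCD5-1, the values at the 2 times did not overlap. The differences were −1.64 and −1.22. CYCD3-1 and CYCD5-1 were the 2 of the 38 genes lower beyond 2-fold in both genotypes. Of all 17905 genes 959 were, which is a similar share.

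CYCD6-1 (LOC4343569) went the other way. Its Arabidopsis counterpart acts in the formative division of the root ground tissue. The signals were 7.84 and 9.03 in WT at 0 h and after PEG, and 7.33 and 8.30 in RNAi-9, so that both PEG arrays exceeded both 0 h arrays. It was higher by 1.19 (WT) and 0.96 (RNAi-9) and was the single gene of the 38 above 0 in both genotypes.

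The other D-type cyclins differed less. CYCD5-3 (LOC4331985), the brightest of the D-type cyclins, had signals of 9.98 and 10.18 in WT and 10.19 and 10.16 in RNAi-9 at 0 h and after PEG, and its 4 values spanned a narrow range. CYCD4-2 had signals of 7.43 and 6.85 in WT and 6.75 and 6.45 in RNAi-9, lower after PEG by less than 2-fold in each genotype. CYCD5-2 was read by 2 probe sets, one of them under 6 on every array. The other gave 8.91 and 7.99 in WT and 9.37 and 8.77 in RNAi-9, which are differences of −0.91 and −0.60, so the mean over both (−0.46 and −0.30) was closer to 0. CYCD3-2 exceeded 6 on the WT 0 h array alone, at 6.01. The 3 genes of the D5 class thus differed among themselves, from −2.32 in WT for CYCD5-1 to 0.20 for CYCD5-3.

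Of the 7 A-type and B-type cyclins, CYCA1-4 (LOC4338177), an A-type cyclin, was the one beyond 2-fold after PEG, in WT. It had signals of 9.14 and 7.41 in WT and of 8.75 and 7.79 in RNAi-9 at 0 h and after PEG. Both genotypes were lower after PEG, and the difference was −1.73 in WT and −0.96 in RNAi-9. CYCA2-1 (LOC4352280) had 7.40 and 7.20 in WT, and 6 (deposited 5.77) and 6.18 in RNAi-9. It separated the genotypes rather than the times. CYCA3-2 had 6.61 and 6 in WT and 6.53 and 6.37 in RNAi-9, all close to 6.

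CYCB1-1 (LOC4327547), a mitotic cyclin widely used as a marker of cells in G2 and mitosis, exceeded 6 on 1 array. Its deposited signals were 5.23 and 6.82 in WT and 5.81 and 5.90 in RNAi-9, so the difference of 0.82 in WT rests on the WT PEG array and was 0 in RNAi-9. CYCB2-1 likewise exceeded 6 on 1 array, with 6.30 in RNAi-9 after PEG. No A-type or B-type cyclin was higher beyond 2-fold in either genotype with low signals raised to 6. CYCB1-1 was in WT with a floor of 5 or the signals as deposited (1.59) and with the offset of 32 (1.06). With the signals as deposited, CYCB1-3 was too in WT (1.64) and RNAi-9 (1.28), and CYCB2-1 (3.53) and CYCB2-2 (3.22) in RNAi-9. All of these start from deposited signals under 6 at 0 h.

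The 3 cyclin-dependent kinases showed no difference beyond 2-fold. CDKA-1 (LOC4331415), the main kinase of the plant cell cycle, had mean signals of 8.01 and 7.97 in WT and 8.02 and 7.94 in RNAi-9. These are means over 2 probe sets, of which one lay near or under 6 on all arrays, and with the signals as deposited the difference in RNAi-9 was 0.72. The brighter probe set alone differed by −0.09 in WT and −0.16 in RNAi-9. CDKA-2 had 6.68 and 6.22 in WT and 6.24 and 6.15 in RNAi-9 over 3 probe sets that disagreed: one was lower by 1.09 in WT, another differed by 0.06 and the third was under 6 on 3 arrays. CDKB2-1, of the plant-specific class that acts in G2 and mitosis, exceeded 6 on the WT PEG array alone, at 6.24.

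Of the 14 replication genes, the 4 above 6 were ORC2, MCM2, MCM9 and PCNA. ORC2 (LOC4331860), a subunit of the origin recognition complex, had signals of 8.49 and 7.47 in WT and 8.33 and 7.36 in RNAi-9 at 0 h and after PEG. PCNA (LOC4331062), the sliding clamp, had 8.87 and 7.89 in WT and 8.81 and 7.82 in RNAi-9. For both genes the PEG arrays lay below the 0 h arrays by about the same amount in each genotype, −1.02 and −0.97 for ORC2 and −0.98 and −0.99 for PCNA. The call for ORC2 in WT and the absence of one for PCNA therefore rest on a few hundredths of log2.

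MCM2 (LOC4350526), a subunit of the replicative helicase, had signals of 7.23 and 7.28 in WT and 7.65 and 6.81 in RNAi-9. The WT arrays were nearly equal (0.04, and −0.05 with the arrays scaled to their medians), while RNAi-9 was lower after PEG by 0.84. RNAi-9 was thus the higher genotype at 0 h and the lower one after PEG. MCM9, a relative of the helicase subunits that takes part in DNA repair in animals, had mean signals of 7.99 and 7.49 in WT and 8.38 and 7.51 in RNAi-9. Its 3 probe sets disagreed. The brightest gave 9.34 and 8.31 in WT and 9.24 and 8.42 in RNAi-9, or −1.03 and −0.81. The faintest was under 6 except on the RNAi-9 0 h array, at 7.22.

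The 5 H2B genes, which encode a core histone of the nucleosome, were the only role group with every member lower in WT. H2B.5 (LOC4324504) had signals of 13.02 and 12.36 in WT and 12.73 and 11.92 in RNAi-9. H2B.6 (LOC4324502) had 12.52 and 11.80 in WT and 12.14 and 11.62 in RNAi-9. H2B.10 (LOC4324495) had 10.61 and 9.29 in WT and 10.75 and 9.78 in RNAi-9. For each of these 3 genes both PEG arrays lay below both 0 h arrays, with differences of −0.66 and −0.81 for H2B.5, −0.73 and −0.51 for H2B.6 and −1.32 and −0.97 for H2B.10.

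H2B.7 had 11.28 and 10.98 in WT and 11.11 and 10.95 in RNAi-9, differing by −0.30 and −0.15. H2B.11 had 12.21 and 11.75 in WT and 11.74 and 11.94 in RNAi-9. It was lower after PEG in WT by 0.46 and 0.20 higher in RNAi-9, where scaling to the hybridization controls turned the difference to −0.07. The group's median difference was −0.66 in WT and −0.51 in RNAi-9, beside 0 and −0.01 over all genes, and 1 of the 5 passed 2-fold in WT and 0 in RNAi-9. H2B genes are near copies of each other, and the probe set of H2B.7 is of a type that can bind several transcripts, so these 5 signals are not separate readings of 5 genes with certainty.

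On the rice assembly ASM3414082v1, used for gene order alone, the 5 measured H2B genes stand on chromosome 1. H2B.10, H2B.7, H2B.6 and H2B.5 follow each other there with 5, 2 and 1 other genes between neighbours. H2B.11 lies a further 3506 genes away. The 4 neighbouring genes were lower after PEG in both genotypes, and H2B.11 in WT.

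The second comparison asks whether RNAi-9 differed from WT at either time. The values lay within 2-fold for all but 1 of the 38 genes. At 0 h, 1 gene (2.63%) was lower in RNAi-9 beyond 2-fold, where 1.68% of all genes were, and 0 were higher, where 3.21% of all genes were. After PEG, 1 gene was again lower, where 1.25% of all genes were, and 0 were higher, where 3.14% of all genes were. In both cases this gene was CYCA2-1. With the arrays scaled to the hybridization controls, 2 genes were lower after PEG (CYCA2-1 and CYCD6-1), while all differences at 2 h shifted by −0.43, and of all genes 236 were higher and 1236 lower, in place of 563 and 224. At 0 h, scaling to the array medians gave 432 higher and 474 lower genes in place of 575 and 301.

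CYCA2-1, of a class of A-type cyclins that in Arabidopsis limits endoreduplication, was lower in RNAi-9 by 1.40 at 0 h and by 1.02 after PEG. Both WT signals (7.40 and 7.20) exceeded both RNAi-9 signals (6 and 6.18), which lay at or near 6, so the difference at 0 h is set in part by the value of 6. The call after PEG lay just inside 2-fold and was lost with an offset of 32 on the linear signal (−0.78) and with a floor of 8. Next in order came CYCD4-2 at 0 h (−0.69) and CYCB1-1 after PEG (−0.82) on the lower side, and MCM2 at 0 h (0.42) and H2B.10 after PEG (0.49) on the higher side.

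Before PEG, signals in RNAi-9 were below WT for 15 of the 38 genes, above for 6 and equal for 17. The share below WT was 39.5%, beside 39.1% of all genes, and the share above was 15.8%, beside 41.7%. After PEG 16 genes (42.1%, against 43.0% of all genes) were below, 7 (18.4%, against 38.8%) above and 15 equal. CYCD5-1 and CYCD3-1, the 2 genes called lower after PEG in both genotypes, were below WT in RNAi-9 at both times. CYCD5-1 was −0.63 and CYCD3-1 −0.68 against WT at 0 h, and −0.27 and −0.26 after PEG. PCNA (−0.06 and −0.07) and ORC2 (−0.16 and −0.11) were nearly level between genotypes at both times, and were further below WT after PEG with the scaling to the hybridization controls (−0.50 and −0.54).

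**Figure D3:**
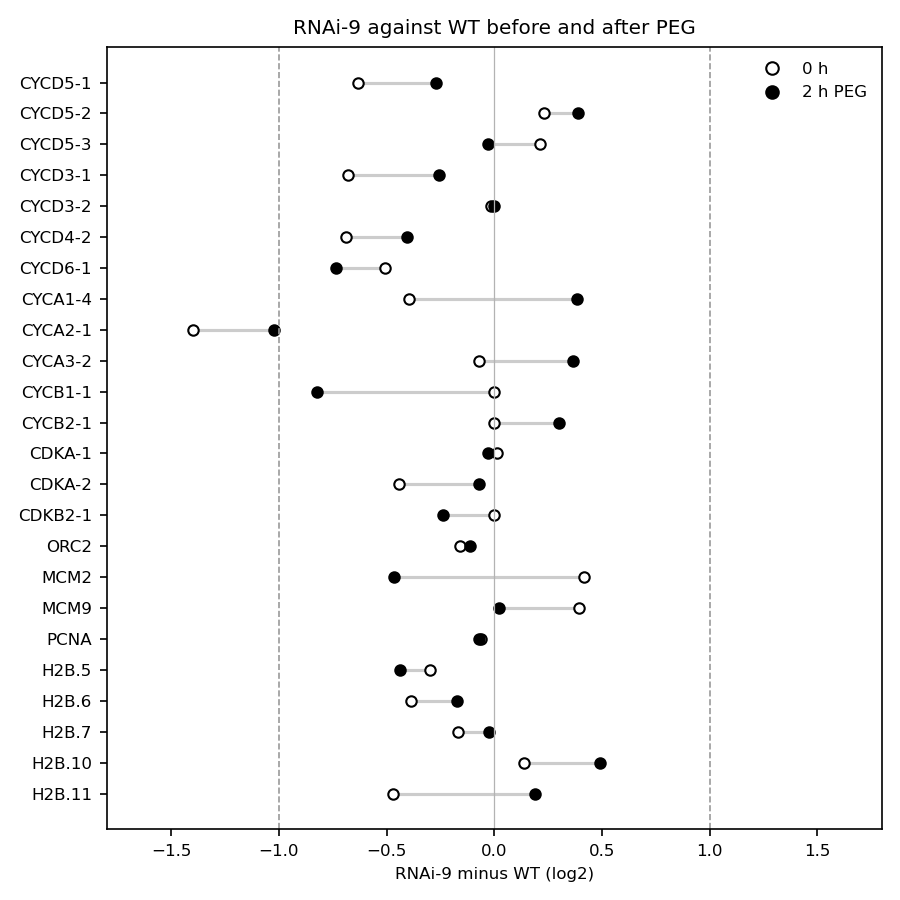
Difference in log2 signal between RNAi-9 and WT at 0 h (open circles) and after 2 h of PEG (filled circles) for the 24 genes whose genotype difference is not 0 at both times. Dashed lines mark 2-fold. CYCA2-1 lies beyond the lower line at both times (−1.40 and −1.02) and no gene lies beyond the upper one.

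The difference of the 2 changes, RNAi-9 minus WT, sets the response to PEG of one genotype against that of the other. None of the 38 genes passed 2-fold in it, with 0 higher, where 2.81% of all genes were, and 0 lower, where 2.45% of all genes were. The values ran from −0.88 for MCM2 and −0.82 for CYCB1-1 to 0.66 for H2B.11 and 0.78 for CYCA1-4. It was above 0 for 15 genes (39.5%) and below 0 for 9 (23.7%), beside 40.0% and 44.6% of all genes, and the median was 0, as over all genes. Scaling to the hybridization controls shifted it by −0.37, brought 1 gene, MCM2 (−1.26), past 2-fold on the lower side, and made the split over all genes 204 higher and 1296 lower in place of 503 and 439. Without replicate arrays none of these differences between genotypes was tested.

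A further 59 genes of the cell cycle and its machinery were read beside the 38, from a list by gene name: inhibitors of cyclin-dependent kinases, 2 retinoblastoma proteins, other cyclins and kinases, replication enzymes, and genes of mitosis and chromatin assembly. In WT 6 of the 59 were higher and 2 lower beyond 2-fold, and in RNAi-9 6 were higher and 3 lower. In both genotypes 4 of the 59 were higher and 2 lower, where of all 17905 genes 1287 and 959 were. Neither share exceeded that of all genes. The higher genes were 10.2% of the list in each genotype, close to the 10.0% and 9.34% of all genes, and the lower genes were 3.39% and 5.08%, beside 9.47% and 9.29%. Their median difference was −0.02 in WT and −0.17 in RNAi-9. Scaling to the hybridization controls changed the RNAi-9 counts to 3 higher (5.08%) and 9 lower (15.3%), where 6.97% and 16.2% of all genes were.

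Both genes highest after PEG in this list encode inhibitors that bind cyclin-dependent kinases and restrain division. SMR1, of the SIAMESE-related family, had signals of 7.97 and 11.34 in WT and 9.23 and 11.98 in RNAi-9 at 0 h and after PEG. EL2, of the same family and known in rice for its response to elicitors, had 8.74 and 11.79 in WT and 9.51 and 12.06 in RNAi-9. For both genes the PEG arrays stood well above the 0 h arrays, by 3.37 and 2.76 for SMR1, and by 3.05 in WT and 2.55 in RNAi-9 for EL2. The 6 inhibitor genes had median differences of 0.29 in WT and 0.73 in RNAi-9. Beyond 2-fold, 2 and 3 of the 6 were higher, where 10.0% and 9.34% of all genes were. KRP5 was the added gene in RNAi-9, at 1.005 from a signal near 6. It fell within 2-fold with the arrays scaled to their medians (0.993) or to the hybridization controls (0.74). KRP1, KRP4 and KRP6 stayed within 2-fold in both genotypes, and KRP4 was lower after PEG in both (−0.20 and −0.24).

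CKS1, a small protein that binds cyclin-dependent kinases, had 8.84 and 10.15 in WT and 8.40 and 10.30 in RNAi-9. The β-tubulin gene TUB7 had 10.60 and 12.07 in WT and 10.77 and 12.04 in RNAi-9. These were the other 2 genes higher in both genotypes, though for TUB7 the RNAi-9 difference of 1.27 was 0.997 with the scaling to the hybridization controls.

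CDKF-1, the kinase that in Arabidopsis activates other cyclin-dependent kinases, had 12.31 and 11.24 in WT and 12.52 and 11.30 in RNAi-9. TOP6B, a subunit of DNA topoisomerase VI, had 9.39 and 8.31 in WT and 8.97 and 7.60 in RNAi-9. These 2 were lower in both genotypes, with differences of −1.07 and −1.23 for CDKF-1 and of −1.08 and −1.37 for TOP6B, and both stayed within 2-fold in WT with the scaling to the hybridization controls. The 20 replication enzymes had median differences of −0.49 in WT and −0.50 in RNAi-9, with 1 higher and 1 lower in WT and 2 lower in RNAi-9 beyond 2-fold. The 13 genes of mitosis and chromatin assembly, most of them tubulins, had medians of 0.35 and 0.20.

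**Figure D4:**
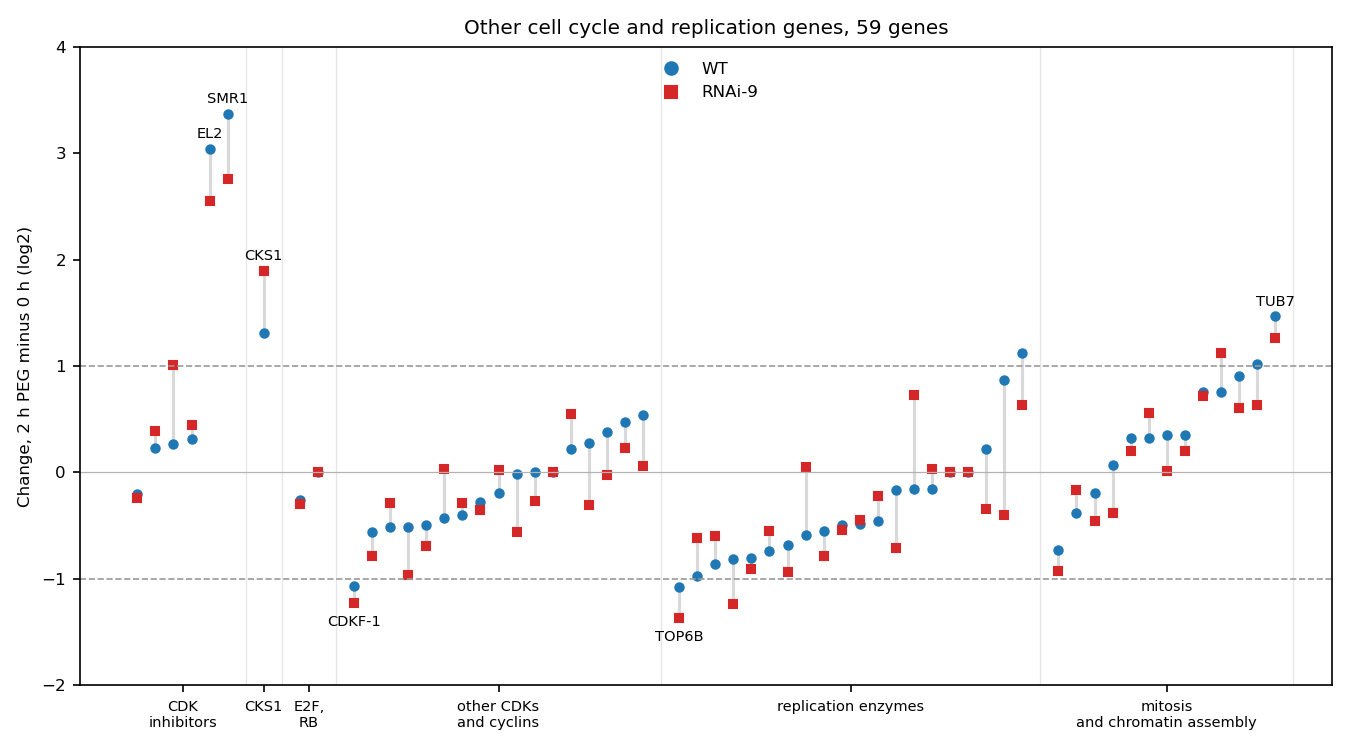
Difference in log2 signal between 2 h of PEG and 0 h for the 59 other cell cycle genes, grouped along the x axis by list and ordered within a list by the WT value. Blue circles are WT and red squares RNAi-9, a grey line joins the values of a gene, and dashed lines mark 2-fold. SMR1 and EL2 stand above 2.5 in both genotypes, and most replication enzymes lie below 0.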

How the data were processed

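RNA from rice leaves was hybridized to 4 Affymetrix Rice Genome Arrays, 1 for each combination of genotype and time. The authors normalized the arrays with GCOS (MAS5 in the submitters' processing notes, version not given) and deposited log2 signals scaled array by array, with no detection calls used here. The lowest value is 0. Such scaling fixes the overall level of an array, so a shift of most genes would not be seen, and low signals carry mostly noise on the log2 scale.

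The array holds 57258 rice probe sets. A single gene was given for 22436 of them, several genes for 95 and no gene for 34727. The 123 control probe sets were left out of the gene signals and counts. Some of them served for the scaling to hybridization controls and for the measures of RNA quality. The 38 genes had 47 probe sets. Names came from RefSeq (assembly ASM3414082v1), through synonyms, and an "Os" before a name was allowed. Signals under 6 were raised to 6, probe sets of a gene were averaged, and differences were taken between arrays. A call was over 2-fold, with no test. The text names genes over 2-fold in any comparison, the brightest of each role group, those that complete 3 per group by size of change, those next to the limit, and other cell cycle genes over 2-fold in both genotypes; the rest were added after their values were seen. The members and lists were chosen with earlier results of these data known. The calculation was tested on simulated data. Python 3.11.15, numpy 2.4.6 and pandas 2.3.3 were used. The alternatives, 12 in all, changed the floor, the scaling, the probe sets and the fold. With 1 array per condition the number of arrays limits the precision. Promoters and proteins were not analysed here.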

Additional observations from a re-analysis of the deposited data

Results flagged for a closer look

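For 4 of the 38 genes (10.5%, against 12.4% of all genes) the 2 genotypes went opposite ways after PEG, and the difference was not tested. The change in RNAi-9 minus that in WT was −0.24 for CYCD5-3, 0.38 for CYCA2-1, −0.88 for MCM2 and 0.66 for H2B.11. Under at least 1 other scaling the sign of 1 of the 2 changes turned for CYCD5-3, MCM2 and H2B.11. With the scaling to the hybridization controls the RNAi-9 change of CYCA2-1 was 0.

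The control probe sets of rice rRNA enter no comparison above. That of the 5.8S rRNA was higher after PEG in both genotypes, with a difference of 2.60 for WT and 2.51 for RNAi-9. Other rRNA controls went both ways. The 25S signal was 11.8 at 0 h and 13.17 after PEG in WT, and 12.04 and 12.82 in RNAi-9. The 28S signal was 13.03 and 13.61 in WT, and 12.79 and 13.41 in RNAi-9. The 18S probe sets were lower after PEG in both genotypes, one with 14.99 and 14.45 in WT, and 15.05 and 14.87 in RNAi-9.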

How the results depend on the processing

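No difference over 2-fold of a named gene among the 38 turned its direction in the alternatives that gave it a value, while smaller ones turned sign under other scalings, as for H2B.11 in RNAi-9. Counts are of the 38 genes, called higher or lower. Shares of all genes are given for the 2-fold limit alone. With the signals as deposited they were 4 and 10 in WT (median −0.43), 5 and 10 in RNAi-9 (−0.16), 4 and 8 for RNAi-9 against WT at 0 h (−0.43), 7 and 4 at 2 h, and 8 and 4 for the difference of changes (0.18). A floor of 5 gave 3 higher in WT (median −0.25), 1 higher in RNAi-9, 2 lower against WT at 0 h, 1 higher at 2 h, and 1 and 1 for the difference of changes (0.13). A floor of 8 left 2 lower in WT and 0 in RNAi-9, at 0 h and at 2 h. An offset of 32 on the linear signal gave 2 higher in WT (median −0.33), 1 higher in RNAi-9 (−0.14), 3 lower at 0 h (−0.28), 0 lower at 2 h, and 2 and 1 for the difference of changes (0.22). Quantile normalization and the median of probe sets of at least 8 each gave 1 higher in RNAi-9, where 9.85% and 10.7% of all genes were. The hybridization controls gave 9 lower in RNAi-9, 2 at 2 h and 1 for the difference of changes, where 16.2%, 6.90% and 7.24% of all genes were. Over 1.5-fold there were 2 and 9 in WT, 1 and 9 in RNAi-9, 4 lower at 0 h, 3 lower at 2 h, and 2 and 2 for the difference of changes. Over 3-fold there were 0 and 3 in WT, 1 lower in RNAi-9, and 0 at 0 h and at 2 h. The changed floors and folds alter the counts by construction, and the cause of the others was not tested. Without probe sets that can bind several transcripts, CYCD5-1, ORC3, ORC4 and H2B.7 had no value and 4 genes (11.8%, against 9.51% of all genes) were lower in WT. A match by symbol alone found 0 genes and gave no value. Of the other values, 116 summaries stayed within 1.5 times the count or 0.1 of the median, among them 4 to 7 lower in WT (7 with the brightest probe set per gene) and 3 lower in RNAi-9 with median scaling, a floor of 5 or the offset. In the settings with 4 to 7 lower in WT, 7.36% to 12.0% of all genes were. For RNAi-9 the shares of all genes lower were 9.56% with median scaling, 10.7% with a floor of 5 and 8.75% with the offset. Of the gene values 603 stayed within 0.5 in log2 and 33 did not. No paired analysis was possible because each condition has 1 array. The single array per condition and signals under 6, for 14 of the 38 genes on all arrays, limit every count.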
